A study of Mus musculus with 7 samples.

Results

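The chemokines described here are 10 ligands known to be made by fibroblasts and mesothelial cells: Cxcl12, Cxcl14, Cxcl1, Cxcl5, Cxcl10, Ccl2, Ccl7, Ccl5, Ccl20 and Cx3cl1. They were chosen by name with earlier results of these data known, and every probe set that the array's annotation gives to 1 of these genes alone was taken, 14 of 22690 probe sets on each of 7 arrays. Of the 10 genes, 9 had a signal above 45.6, the median of all signals, on at least 1 array and entered the tests. Ccl20 did not.

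Chemokines are small secreted proteins that bind receptors on leukocytes and other cells and direct their movement. Some, such as Cxcl12 and Cxcl14, are made steadily by connective tissue, while others are induced by inflammatory signals through the transcription factor NF-kB or by interferons. Fibroblasts and mesothelial cells, the lining of the body cavities, are well known sources of both kinds.

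All cells were mouse embryonic fibroblasts (MEF) that lacked the tumour suppressor p53 (p53-/-), the control groups included. The p53-/- Dnmt1-/- cells, called p53-Dnmt1-null, also lacked Dnmt1, the enzyme that copies DNA methylation when DNA is replicated. Both genotypes were profiled untreated (0 h) and after 24 h and 48 h of TSA (trichostatin A, an inhibitor of histone deacetylases). The p53-Dnmt1-null cells were profiled once more 2 weeks after TSA was removed. The p53-/- cells are called p53-null, and no after-removal array of them was analysed here. There was 1 array per group, and the series asks what DNA methylation contributes to keeping genes silent. The sources used here do not give the TSA dose, the exposure before its removal, how the genes were deleted, or whether the cells were a line, a clone or a pool.

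The arrays were scaled alike, with array medians of 41.9 to 48.8. The signal of Dnmt1 was 206.5, 74.0 and 109.5 in p53-Dnmt1-null cells at 0, 24 and 48 h and 123.2 after removal, against 695.6, 384.4 and 308.2 in p53-null cells. Whether its probes fall in the deleted part is unknown here. The labelled cell type was checked against markers. The summed signal of 13 fibroblast markers was 9281.6 to 16684.9 in p53-Dnmt1-null arrays, against 30502.1 to 38044.6 in p53-null arrays. By limma, a linear model fitted to all features, 10 of the 13 passed as lower and 1 as higher. Beside this, 19.4% of all features were called in each direction. Postn, Lum and Fap passed the signal filter of 45.6 only through p53-null arrays. The summed signal of 8 mesothelial markers was 10548.0 to 17380.6 in p53-Dnmt1-null arrays, against 152.9 to 417.0 in p53-null arrays, and all 8 were higher by limma. Of these, Msln, Upk3b, Wt1, Krt18, Gpm6a and Bnc1 passed the filter only through p53-Dnmt1-null arrays. The macrophage markers summed to 316.8 to 596.4 in p53-Dnmt1-null arrays, against 251.5 to 310.3 in p53-null arrays. Of 13 macrophage markers 8 were under 45.6 on every array, the defining Adgre1, Itgam and Ptprc among them. Of the 5 that passed, limma called 3 higher in p53-Dnmt1-null cells, Itgb2 by 2.35, Csf1r by 1.38 and Cd68 by 1.02 on the log2 scale, and none was lower. Itgb2 passed the filter only through p53-Dnmt1-null arrays. Epithelial markers summed to 216.4 to 1330.0 in p53-Dnmt1-null arrays, against 98.9 to 158.8 in p53-null arrays, and all 5 that passed the filter were higher, each of which passed it only through p53-Dnmt1-null arrays. Lymphocyte, neutrophil and endothelial markers each had 1 gene that passed. All of these marker counts stand beside 19.4% of all features called in each direction. Because some markers entered only through the genotype where they are high, the counts are a description. The 18S ribosomal RNA control at the 3' end read 688.1, 2549.1 and 1292.1 in p53-Dnmt1-null cells and 93.6 after removal, against 194.0, 337.5 and 228.7 in p53-null cells. The part of these in the results was not tested. In such bulk samples fewer cells of a type and less RNA per cell cannot be told apart.

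Promoter sequence was taken from RefSeq (mouse assembly GRCm38.p6) for 6 of the 10 genes. Those of Cxcl5, Ccl2, Ccl7 and Ccl5 were not used here. The 250 bases before the transcription start are shown for 2 ligands that were higher and 2 that were lower in p53-Dnmt1-null cells, so that induced and steadily made ligands can be read side by side, and the windows of Ccl20 and Cx3cl1 are described after them. In the first pair the capitals mark matches to the NF-kB consensus. In the second pair they mark CpG, the dinucleotide that Dnmt1 keeps methylated. Each is written 5' to 3' on the strand of its gene.
Cxcl1: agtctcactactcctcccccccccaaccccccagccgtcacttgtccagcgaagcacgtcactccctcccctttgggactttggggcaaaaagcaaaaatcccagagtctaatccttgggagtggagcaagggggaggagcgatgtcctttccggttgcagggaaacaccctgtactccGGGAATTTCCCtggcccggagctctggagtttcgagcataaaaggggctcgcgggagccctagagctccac
Cxcl10: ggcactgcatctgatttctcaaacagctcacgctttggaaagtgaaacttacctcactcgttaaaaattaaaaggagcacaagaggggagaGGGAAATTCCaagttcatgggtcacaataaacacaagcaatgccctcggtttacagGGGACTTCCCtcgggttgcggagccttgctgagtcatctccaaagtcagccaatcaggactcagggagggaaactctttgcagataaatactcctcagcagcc
Cxcl12: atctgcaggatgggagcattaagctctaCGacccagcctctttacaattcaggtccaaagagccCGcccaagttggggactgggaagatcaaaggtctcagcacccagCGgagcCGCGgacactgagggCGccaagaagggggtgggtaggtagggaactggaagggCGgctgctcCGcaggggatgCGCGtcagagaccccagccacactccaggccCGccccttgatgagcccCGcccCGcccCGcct
Cxcl14: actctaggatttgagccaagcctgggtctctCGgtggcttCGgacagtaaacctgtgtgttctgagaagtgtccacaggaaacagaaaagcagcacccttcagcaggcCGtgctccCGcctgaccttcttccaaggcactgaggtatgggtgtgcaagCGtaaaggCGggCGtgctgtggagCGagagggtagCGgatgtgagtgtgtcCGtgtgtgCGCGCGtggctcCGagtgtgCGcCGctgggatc

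The Cxcl1 window lies at chr5:90890995-90891244 on the forward strand. Its NF-kB match, GGGAATTTCC at -71 to -62 from the start, overlaps GGGAAATTCC at -70 to -61 on the other strand. The Cxcl10 window, chr5:92348890-92349139 on the reverse strand, holds GGGAAATTCC at -159 to -150 and GGGACTTCCC at -103 to -94. It also holds the interferon-stimulated response element GAAAGTGAAA, searched as GAAA, any 2 bases (NN), GAAA, at -213 to -204. On either strand, 3.9% of 32851 RefSeq promoter windows of this length hold the NF-kB consensus and 3.0% hold this interferon element. The windows of Cxcl12 (chr6:117168285-117168534, forward strand) and Cxcl14 (chr13:56296552-56296801, reverse strand) hold no match to the NF-kB consensus. They hold 14 and 16 CpG, against 10 in Cxcl1 and 5 in Cxcl10 and a median of 6 over all windows. As many CpG as in Cxcl12 are found in 29.4% of windows, and as many as in Cxcl14 in 25.4%. Cxcl12 also holds 5 GC boxes (GGGCGG, which 32.7% of windows hold), and Cxcl14 holds GAAACAGAAA at -172 to -163, a match to the interferon element. Ccl20, which was under the filter level on all 7 arrays, also has an NF-kB match, GGGGTTTTCC at -80 to -71 on the strand opposite to the gene, and holds 2 CpG (chr1:83116516-83116765, forward strand). Cx3cl1 has no NF-kB match and 14 CpG (chr8:94771930-94772179, forward strand). A match describes the letters and is not a measured binding site, and no methylation was measured here.

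The first comparison asked how the chemokines differ between p53-Dnmt1-null and p53-null cells. Ccl2 and Cxcl10, which attract monocytes and activated T cells, were 11.1-fold and 6.23-fold higher in p53-Dnmt1-null cells, and Ccl5 and Cxcl1 were higher by smaller amounts. Cxcl12 and Cxcl14, made steadily by fibroblasts, were 7.03-fold and 10.2-fold lower, and Cxcl5 and Cx3cl1 were also lower. Ccl7 did not pass the test. These folds depend on the offset where 1 genotype is dim. Over 13 settings the log2 difference ran from 2.85 to 3.76 for Ccl2, 1.81 to 3.15 for Cxcl10, -3.13 to -2.73 for Cxcl12 and -4.01 to -2.36 for Cxcl14. All differences are p53-Dnmt1-null minus p53-null on the log2(signal + 11.4) scale, which understates the change of dim genes, and adjusted p-values are from limma over 9390 features. Of the 9 genes 4 were higher, against 19.4% of all features, and 4 were lower, again against 19.4%. Cxcl10, Ccl5 and Ccl7 passed the signal filter only through p53-Dnmt1-null arrays and Cxcl14 only through p53-null arrays, so these counts carry no support of their own. The members' median difference was 0.48 and that of all features 0.04. These p-values rest on the spread between single arrays over 3 times, not between cultures.

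**Figure D1:**
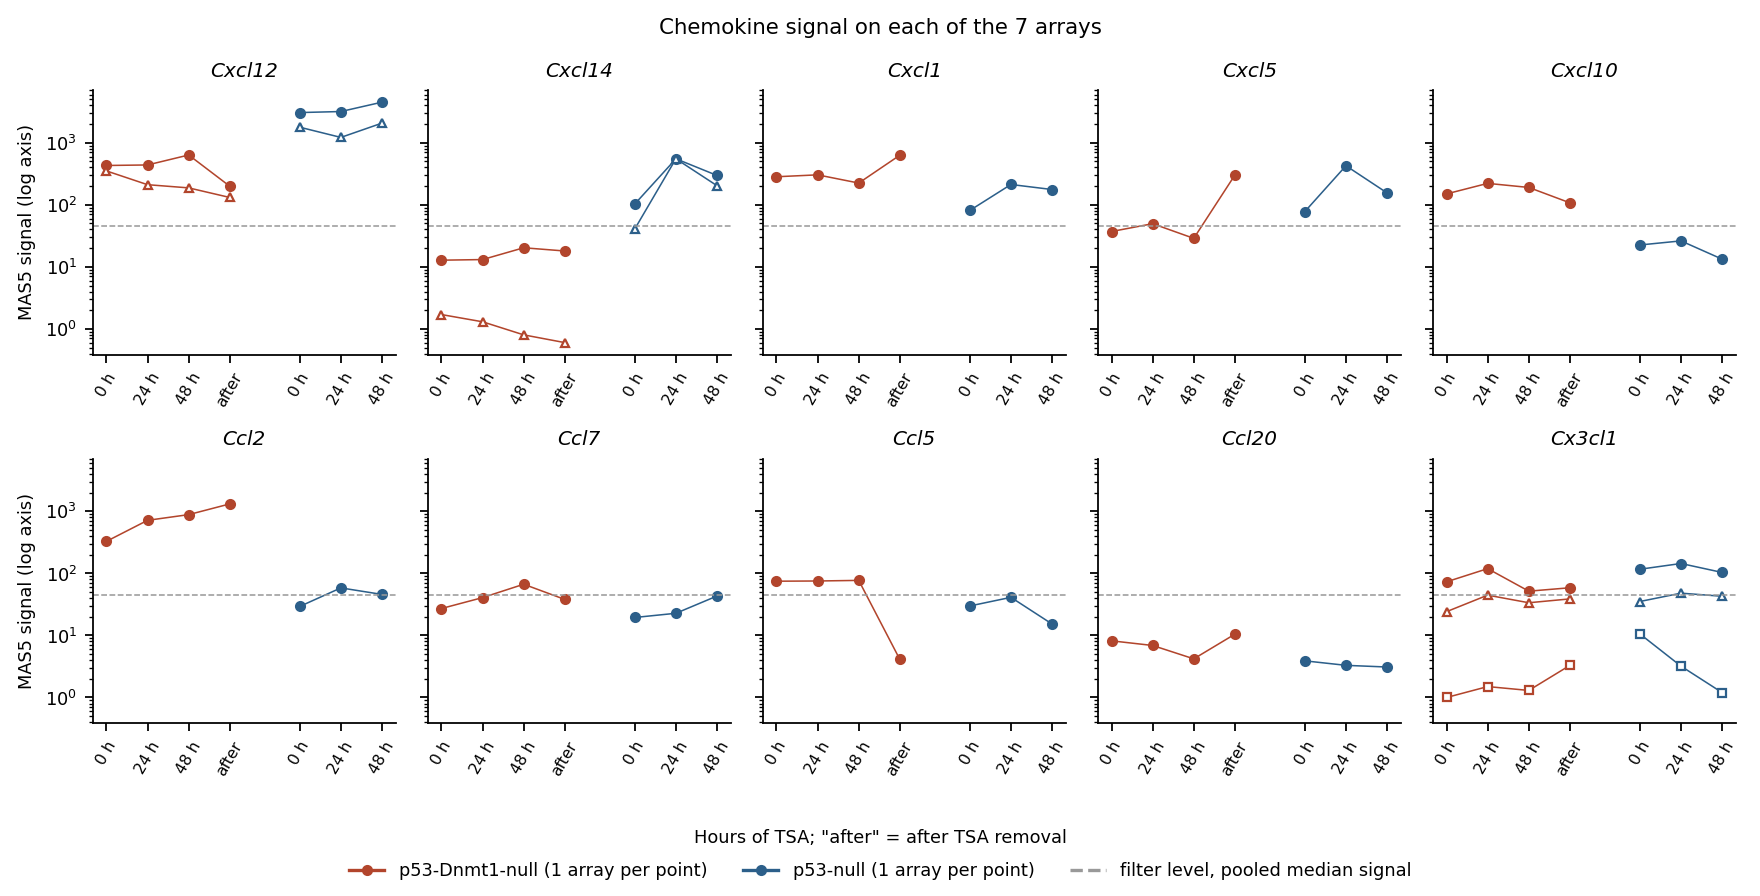
Deposited signal of each chemokine probe set on the 7 arrays, on a log axis, with p53-Dnmt1-null arrays left of p53-null arrays. Filled circles are the tested probe set of a gene, open symbols its other probe sets, and the dashed line is the filter level of 45.6. Ccl2 and Cxcl10 lie higher and Cxcl12 and Cxcl14 lower on every p53-Dnmt1-null array than on any p53-null array.

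Cxcl12, also called SDF-1, retains haematopoietic stem cells and lymphocytes through the receptor Cxcr4. Its signal was 430.7, 439.1 and 635.8 in p53-Dnmt1-null cells at 0, 24 and 48 h and 199.1 after TSA removal, against 3071.6, 3191.7 and 4520.5 in p53-null cells. The 4 p53-Dnmt1-null arrays lay far below the 3 p53-null arrays, and both genotypes read highest at 48 h. The difference was -2.81 ± 0.11 (SE, 3 arrays per genotype, limma adjusted p = 1.62e-06). At the 3 times it was -2.80, -2.83 and -2.81. Another probe set of Cxcl12 read 352.0, 211.1 and 187.5 in p53-Dnmt1-null cells and 131.3 after removal, against 1782.9, 1221.1 and 2076.8 in p53-null cells. It gave -2.72 ± 0.22 (limma adjusted p = 3.5e-05 over all probe sets that passed the filter), with a wider spread over the 3 times, -2.30, -2.47 and -3.39.

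Cxcl14, or BRAK, is a ligand of skin and connective tissue. It read 12.8, 13.1 and 20.3 in p53-Dnmt1-null cells and 18.0 after removal, against 103.0, 552.3 and 297.3 in p53-null cells. All 4 p53-Dnmt1-null arrays were under the filter level and all 3 p53-null arrays above it. The difference was -3.35 ± 0.37 (limma adjusted p = 0.000268), and at the 3 times it was -2.24, -4.52 and -3.28. The other Cxcl14 probe set read 1.7, 1.3 and 0.8 in p53-Dnmt1-null cells and 0.6 after removal, against 40.8, 552.0 and 203.2 in p53-null cells. That probe set gave -3.87 ± 0.54 (limma adjusted p = 0.000769).

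Cxcl1 and Cxcl5 both attract neutrophils through Cxcr2, and they went opposite ways between the genotypes. Cxcl1 read 283.4, 304.2 and 224.3 in p53-Dnmt1-null cells and 631.3 after removal, against 81.1, 212.7 and 176.4 in p53-null cells. The groups did not overlap, but the gap between them was small, with 224.3 in p53-Dnmt1-null cells at 48 h against 212.7 in p53-null cells at 24 h. The difference was 0.83 ± 0.27 (limma adjusted p = 0.0384), with 1.67, 0.49 and 0.33 at the 3 times. Without the untreated pair it was 0.41 (limma adjusted p = 0.17). The call passed in 8 of 13 settings and was also lost without the filter (limma adjusted p = 0.0891) and with all 7 arrays (limma adjusted p = 0.061). Cxcl5 read 37.1, 49.6 and 28.8 in p53-Dnmt1-null cells and 302.2 after removal, against 77.8, 426.5 and 155.4 in p53-null cells. The after-removal array alone reached the p53-null range. Over the 3 times Cxcl5 differed by -1.93 ± 0.33 (limma adjusted p = 0.00257), with -0.88, -2.84 and -2.05 at 0, 24 and 48 h. The untreated pair of Cxcl5 was thus less far apart than the TSA pairs. With the after-removal array included in a fit of all 7 arrays without time, it differed by -1.26 (limma adjusted p = 0.223).

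Cxcl10, or IP-10, is induced by interferons and binds Cxcr3 on activated T cells. Its signal was 150.0, 221.7 and 190.5 in p53-Dnmt1-null cells and 107.6 after removal, against 22.5, 26.2 and 13.3 in p53-null cells. All 4 p53-Dnmt1-null arrays were above the filter level and all 3 p53-null arrays under it. The difference was 2.64 ± 0.22 (limma adjusted p = 5.63e-05), at 2.25, 2.63 and 3.03 over the 3 times.

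Ccl2, or MCP-1, is the main ligand of the monocyte receptor Ccr2. It read 329.1, 718.6 and 888.2 in p53-Dnmt1-null cells and 1322.5 after removal, against 29.4, 58.5 and 45.9 in p53-null cells. Every p53-Dnmt1-null array was well above every p53-null array. Ccl2 differed by 3.47 ± 0.21 (limma adjusted p = 1.31e-05), the largest increase among the 9 genes tested, with 3.06, 3.38 and 3.97 at 0, 24 and 48 h. Ccl7, or MCP-3, is a related monocyte attractant. It read 27.2, 40.8 and 67.0 in p53-Dnmt1-null cells and 38.1 after removal, against 19.5, 22.8 and 43.3 in p53-null cells. The groups overlapped, and Ccl7 was above the filter level only at 48 h in p53-Dnmt1-null cells. Its difference of 0.48 ± 0.24 did not pass (limma adjusted p = 0.150).

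Ccl5, or RANTES, attracts T cells and monocytes. It read 75.0, 75.6 and 77.3 in p53-Dnmt1-null cells and 4.1 after removal, against 29.9, 41.2 and 15.3 in p53-null cells. The 3 p53-Dnmt1-null arrays with and without TSA were nearly alike and above all p53-null arrays, and the after-removal array was below every other array. The difference was 1.17 ± 0.26 (limma adjusted p = 0.00788). Without the 48 h pair it was 0.90 (limma adjusted p = 0.0597), and with the after-removal array in the fit of all 7 it was 0.55 (limma adjusted p = 0.529). Ccl20, which attracts cells bearing Ccr6, read 4.2 to 10.5 in p53-Dnmt1-null arrays and 3.1 to 3.9 in p53-null arrays. All 7 values were far under the filter level, and no fold is given.

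Cx3cl1, or fractalkine, is a membrane-bound chemokine that is shed by proteases. It read 73.3, 119.6 and 51.8 in p53-Dnmt1-null cells and 58.8 after removal, against 116.9, 144.7 and 103.8 in p53-null cells. The groups overlapped, since the p53-Dnmt1-null array at 24 h exceeded 2 p53-null arrays. The difference of -0.57 ± 0.20 was at the threshold (limma adjusted p = 0.0486). It passed in 4 of 13 settings, with adjusted p from 0.0279 to 0.308. Another probe set gave -0.25 ± 0.23 (limma adjusted p = 0.425), and the third was at 10.6 or less on every array.

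**Figure D2:**
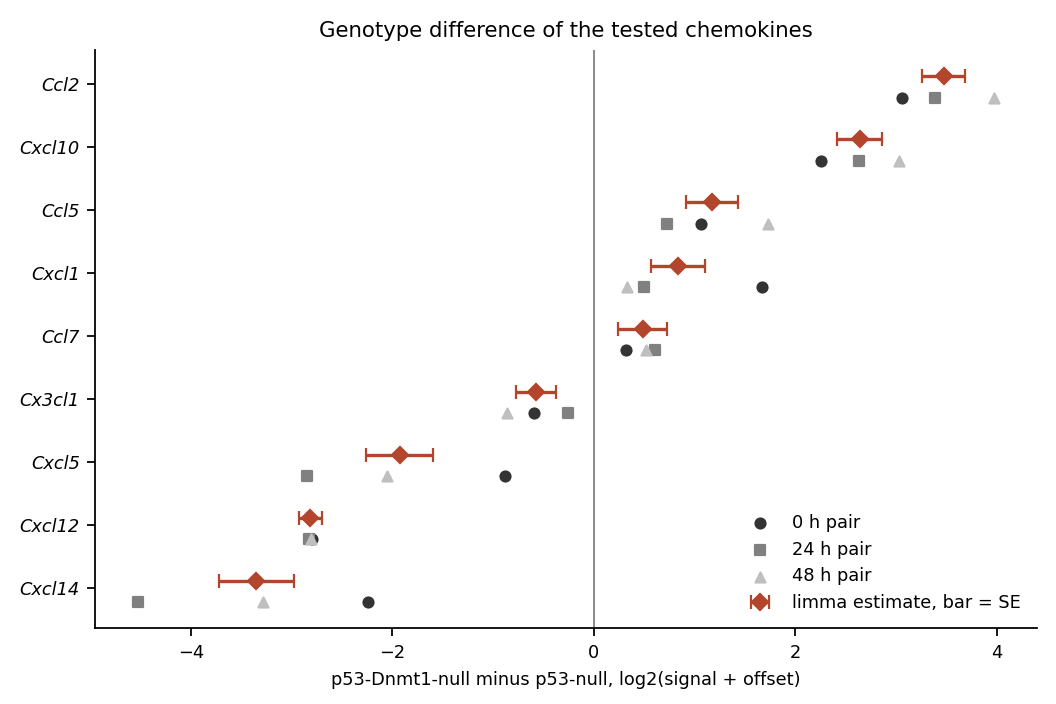
Genotype difference of the 9 tested chemokines on the log2(signal + 11.4) scale, p53-Dnmt1-null minus p53-null, with points for the pairs at 0, 24 and 48 h and the limma estimate with its SE. Ccl2, at 3.47, and Cxcl14, at -3.35, are the ends of the order, and the 3 Cxcl12 pairs of the tested probe set nearly coincide.

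By pairs of arrays, Ccl2 and Cxcl10 were at least 2-fold higher at all 3 times, 2 of 9 against 5.11% of features. Cxcl12 and Cxcl14 were at least 2-fold lower at all 3, 2 of 9 against 5.99% of features. Among the untreated arrays alone 4 of 9 were at least 2-fold higher, against 9.44% of features, and 2 of 9 were lower, against 10.7%. In 4 of 9 genes the 3 p53-Dnmt1-null arrays lay wholly above the 3 p53-null arrays (23.0% of features), and in 3 of 9, Cxcl12, Cxcl14 and Cxcl5, wholly below (21.9%). With the after-removal array added, Ccl2, Cxcl1 and Cxcl10 lay wholly above (15.9% of features) and Cxcl12 and Cxcl14 wholly below (19.0%). As above, Cxcl10, Ccl5 and Cxcl14 passed the filter only through the genotype where they are high, so these counts are a description.

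The other chemokine ligands split as well. Of 28 listed, 24 had a probe set and 9 passed the filter. Between genotypes 4 passed as higher in p53-Dnmt1-null cells, 2 as lower and 3 not at all, and the median difference was 0.58, beside 19.4% of all features in each direction. Cxcl15 and Ppbp passed the filter only through p53-null arrays, and Ccl17, Ccl25 and Cxcl13 only through p53-Dnmt1-null arrays. Cxcl15, or lungkine, attracts neutrophils. It read 16.2, 9.2 and 21.2 in p53-Dnmt1-null cells and 1.5 after removal, against 500.5, 718.0 and 1372.5 in p53-null cells, a difference of -4.92 ± 0.25 (limma adjusted p = 5.1e-06). Ppbp, the precursor of another neutrophil attractant, read 4.8, 15.0 and 11.3 in p53-Dnmt1-null cells and 7.2 after removal, against 81.8, 804.6 and 265.7 in p53-null cells. Its difference was -3.69 ± 0.39 (limma adjusted p = 0.00021). Both were under the filter level on every p53-Dnmt1-null array.

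Ccl17, a ligand of Ccr4, read 33.1, 149.2 and 142.6 in p53-Dnmt1-null cells and 65.9 after removal, against 10.7, 4.4 and 4.5 in p53-null cells. It differed by 2.54 ± 0.45 (limma adjusted p = 0.0029). Cxcl16, a membrane-bound ligand of Cxcr6, read 196.5, 182.5 and 274.5 in p53-Dnmt1-null cells and 155.4 after removal, against 33.9, 74.2 and 50.0 in p53-null cells. Its difference was 1.87 ± 0.24 (limma adjusted p = 0.000602). For both ligands, every p53-Dnmt1-null array was above every p53-null array. The 15 ligands that failed the filter had no signal above 42.0.

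**Figure D3:**
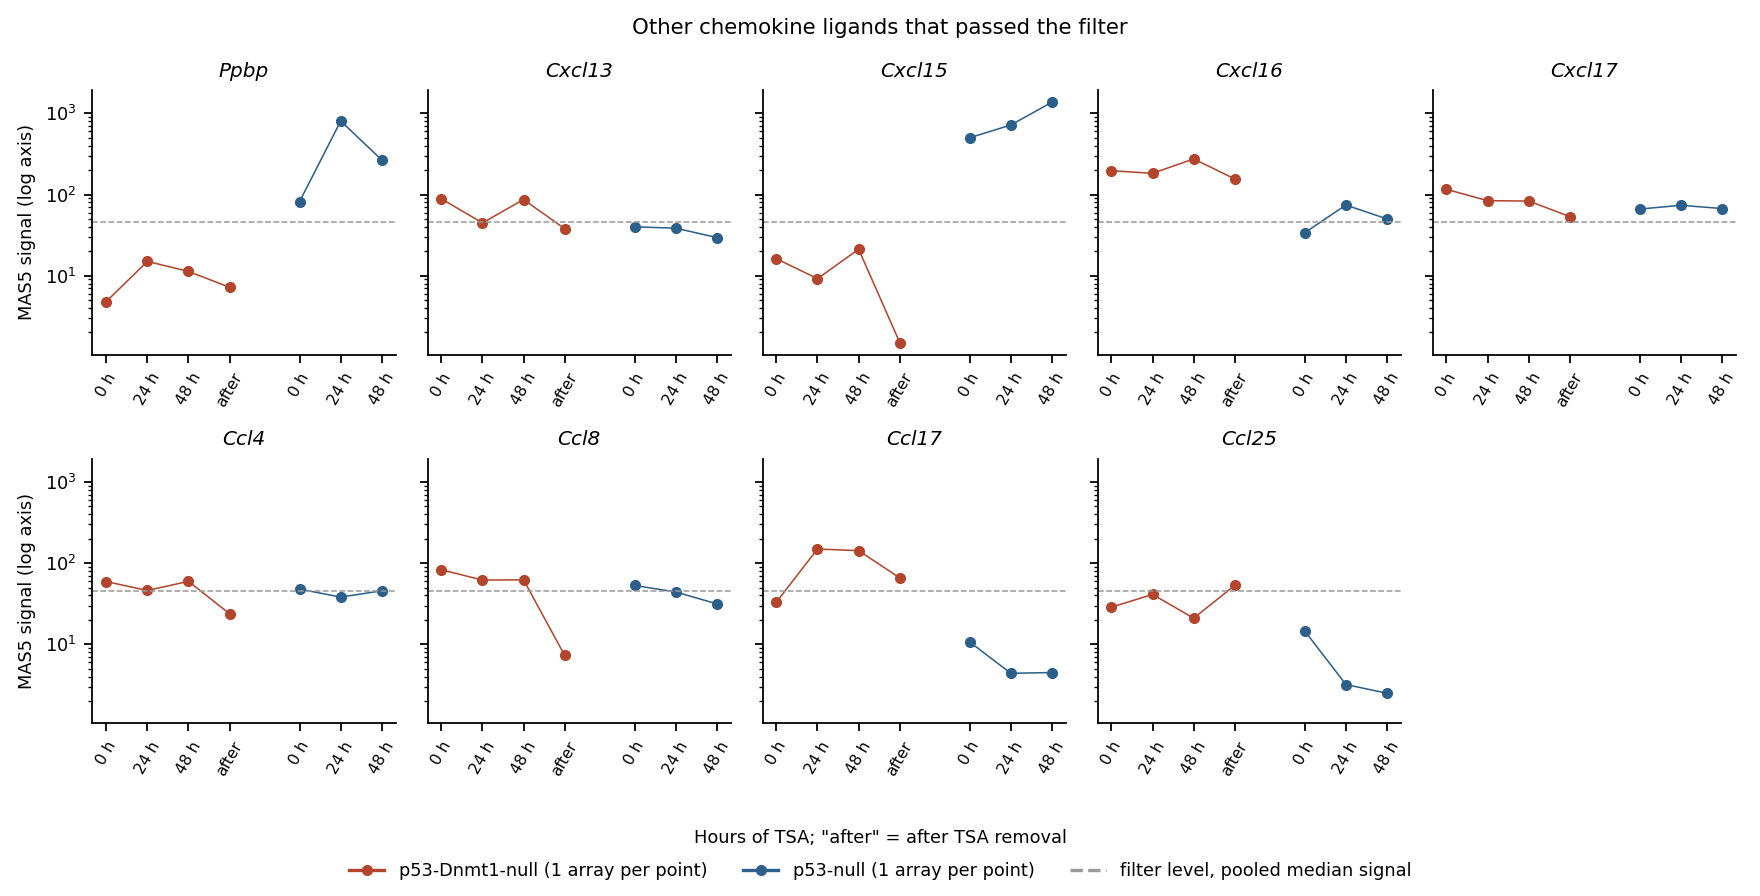
Signal of the chemokine ligands outside the 10 that passed the filter on a log axis by array, with p53-Dnmt1-null arrays left of p53-null arrays. Cxcl15 and Ppbp stay under the dashed filter level of 45.6 on all p53-Dnmt1-null arrays, and Cxcl16 stays above it there.

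Receptors were mostly dim. Of 23 listed receptors, 21 had a probe set and 3 passed the filter. Of these 3, 1 was lower and none higher in p53-Dnmt1-null cells, beside 19.4% of all features in each direction. The 18 others, with Cxcr4, Cxcr2, Cxcr3, Ccr2 and Cx3cr1 among them, had no signal above 38.3. Ackr3, which binds and removes Cxcl12, read 1.6, 17.2 and 24.0 in p53-Dnmt1-null cells and 20.5 after removal, against 105.0, 111.6 and 223.0 in p53-null cells. All p53-null arrays were above the filter level and all p53-Dnmt1-null arrays under it, so Ackr3 passed only through p53-null arrays. Its difference was -2.66 ± 0.26 (limma adjusted p = 0.000128), in the same direction as Cxcl12.

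NF-kB controls many of the induced chemokines. Of 15 NF-kB subunits and inhibitors tested, 6 passed as higher in p53-Dnmt1-null cells, 1 as lower and 8 not at all, beside 19.4% of all features in each direction, and the median was 0.52. Bcl3, Nfkbie, Nfkbiz, Tnfaip3 and Traf6 passed the filter only through p53-Dnmt1-null arrays. Bcl3, a nuclear partner of NF-kB, read 77.0, 77.7 and 87.0 in p53-Dnmt1-null cells and 78.9 after removal, against 11.3, 2.4 and 3.2 in p53-null cells. It differed by 2.47 ± 0.29 (limma adjusted p = 0.000357). Tnip1, an inhibitor of the pathway, differed by 1.56 ± 0.15 (limma adjusted p = 0.000128), the subunit Nfkb2 by 1.36 and the inhibitor Nfkbie by 1.29. Of 14 other NF-kB target genes, 4 passed as higher, 3 as lower and 7 not at all, beside the same 19.4%, and the median was 0.37. Saa3, Lif, Csf3 and Lcn2 passed the filter only through p53-Dnmt1-null arrays, and Mmp3 and Ptgs2 only through p53-null arrays. Saa3, an acute-phase protein, read 145.4, 286.1 and 222.0 in p53-Dnmt1-null cells and 191.6 after removal, against 17.1, 13.4 and 17.3 in p53-null cells, a difference of 3.02 ± 0.25 (limma adjusted p = 5.26e-05). Icam1, an adhesion molecule for leukocytes, differed by 2.59 ± 0.32 (limma adjusted p = 0.00046) and the cytokine Il33 by 2.00. Mmp3, a matrix protease, was lower, by -2.28 ± 0.35 (limma adjusted p = 0.00148).

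Of 12 interferon pathway factors, 3 passed as higher, 4 as lower and 5 not at all, beside 19.4% of all features in each direction, and the median was 0.12. Irf5 passed the filter only through p53-Dnmt1-null arrays and Socs1 only through p53-null arrays. Irf5, an interferon regulatory factor, differed by 2.13 ± 0.21 (limma adjusted p = 0.00015), Socs3, a feedback inhibitor, by 1.01, and Irf1 by 0.92. The kinase Jak1 was lower, by -0.99 ± 0.16 (limma adjusted p = 0.00219).

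The next comparison asked what TSA did to the chemokines in each genotype. In p53-null cells Cxcl14 and Cxcl1 were at least 2-fold above the untreated array at both times, and Cxcl5 passed that size at 24 h only. In p53-Dnmt1-null cells only Ccl2 of the 9 was at that size at both. No chemokine was at least 2-fold lower at both times in either genotype. None of these differences passed limma after adjustment over all features, where 0.0% of features passed in either genotype. At an unadjusted p under 0.05 there were 799 features in p53-null cells, with Cxcl1, Cxcl14 and Cxcl5 among them, and 736 in p53-Dnmt1-null cells, with Ccl2 among them. The comparisons within a genotype share its untreated array.

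In p53-null cells the difference of Cxcl14 from untreated was 2.30 at 24 h and 1.43 at 48 h, and 1.87 ± 0.42 with both times pooled (limma adjusted p = 0.379). Its other probe set gave 3.43 and 2.04. Cxcl5 differed by 2.30 at 24 h and 0.90 at 48 h (limma adjusted p = 0.525 pooled), and Cxcl1 by 1.28 and 1.02 (limma adjusted p = 0.434 pooled). All 3 read higher at 24 h than at 48 h. Cxcl14 and Cxcl1 made 2 of 9 at the 2-fold size at both times, against 1.54% of features higher and 0.99% lower. Ccl2, Ccl7, Cxcl12, Cxcl10, Ccl5 and Cx3cl1 were within 2-fold at both times, with pooled differences of -0.15 to 0.63. Ppbp differed by 2.35 pooled (limma adjusted p = 0.388).

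In p53-Dnmt1-null cells Ccl2 differed from untreated by 1.10 at 24 h and 1.40 at 48 h, and by 1.25 ± 0.31 pooled (limma adjusted p = 0.455). It was 1 of 9 at the 2-fold size, against 1.87% of features higher and 0.341% lower. Ccl7 reached 1.02 at 48 h, after 0.44 at 24 h. Cxcl14 stayed near its untreated signal, with 0.02 and 0.39, and so did Ccl5, with 0.01 and 0.04. Cxcl12 gave 0.03 and 0.55 by the tested probe set and -0.71 and -0.87 by the other, so its direction with TSA was not settled. In p53-null cells its probe sets also differed, with 0.06 and 0.56 against -0.54 and 0.22.

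The difference between the genotypes' TSA responses was tested directly. It was -1.66 ± 0.60 for Cxcl14, -1.57 ± 0.78 for Cxcl5 and -1.26 ± 0.46 for Cxcl1, with the p53-null response the larger, and 0.62 ± 0.44 for Ccl2. Cxcl14 was under the filter level on every p53-Dnmt1-null array, which limits the reading of its value. No limma adjusted p among the 9 genes was below 0.994, and no feature passed, with 291 features at an unadjusted p under 0.05, Cxcl1 and Cxcl14 among them. Averaged over the genotypes, TSA gave 0.94 ± 0.23 for Ccl2 (limma adjusted p = 0.149) and 1.04 ± 0.40 for Cxcl14 (limma adjusted p = 0.280). In that fit 0.0319% of features were higher and 0.0% lower, and no chemokine passed. Without the 24 h arrays Ccl2 passed, at 0.95 (limma adjusted p = 0.0476).

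**Figure D4:**
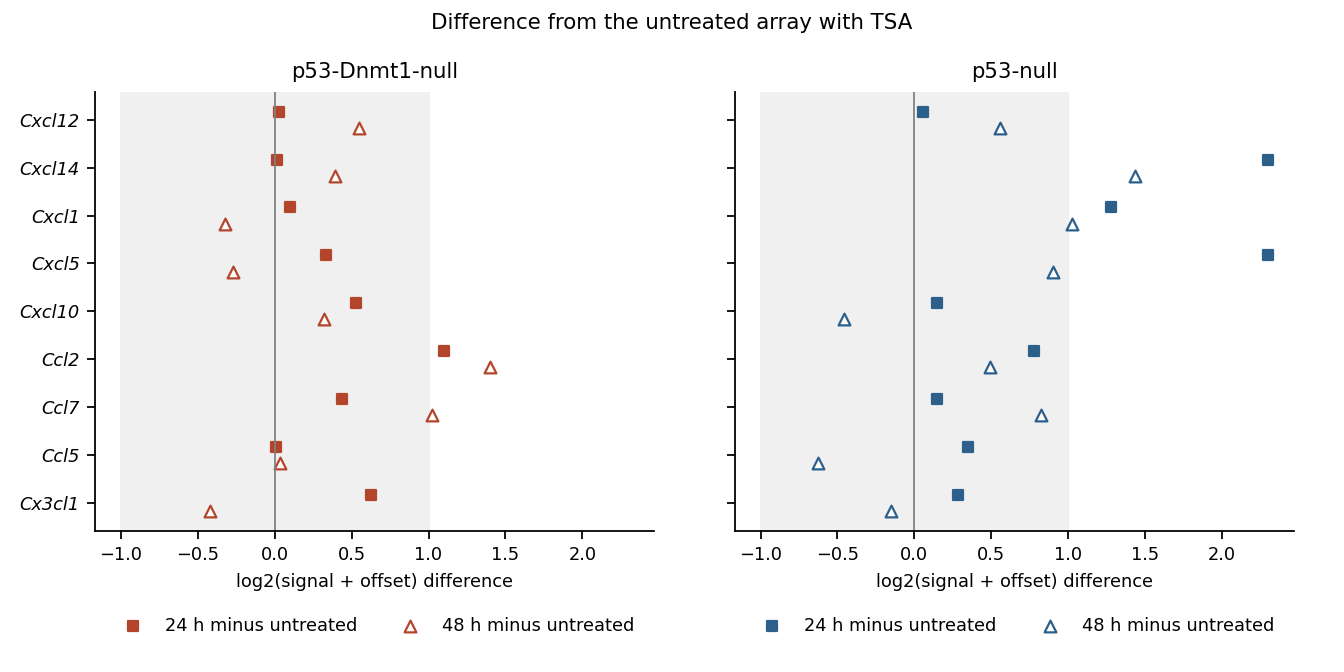
Difference of each chemokine from the untreated array of its genotype after 24 h and 48 h of TSA, on the log2(signal + 11.4) scale, with p53-Dnmt1-null cells left of p53-null cells. The shaded band is under 2-fold. In p53-Dnmt1-null cells Ccl2 lies outside it at 24 h and 48 h, and in p53-null cells Cxcl14 and Cxcl1 do.

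The last comparison asked how p53-Dnmt1-null cells stood 2 weeks after TSA was removed. Against the 24 h and 48 h TSA arrays, Cxcl5 was 6.33-fold and Cxcl1 2.36-fold higher after removal, and Ccl5 and Cxcl12 were lower, Cxcl12 by 2.57-fold. Those 4 passed limma, 2 of 9 higher against 4.21% of features and 2 of 9 lower against 7.52%. The other 5 chemokines did not pass. The same 4 were at least 2-fold from both TSA arrays, where 5.24% of features were higher and 10.1% lower. Ccl5 passed the filter only through the untreated and TSA arrays of p53-Dnmt1-null cells, where it is high. Counts that include it are therefore a description. Without the signal filter none of the 4 passed, with limma adjusted p from 0.0746 to 0.0852. There was 1 after-removal array, which is assumed to vary like the pairs of TSA arrays.

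Cxcl5 read 302.2 after removal, against 49.6 and 28.8 with TSA and 37.1 untreated. The after-removal array stood alone, and the difference from TSA was 2.66 ± 0.55 (limma adjusted p = 0.0307). Cxcl1 read 631.3 after removal, against 304.2 and 224.3 with TSA and 283.4 untreated, a difference of 1.24 ± 0.32 (limma adjusted p = 0.0481). That call passed in 4 of 8 settings. Cxcl5, Cxcl1 and Ccl2 were highest on the after-removal array among the p53-Dnmt1-null arrays (3 of 9, against 29.4% of features), and Ccl5, Cxcl10 and Cxcl12 lowest (3 of 9, against 44.1%).

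Ccl5 read 4.1 after removal, against 75.6 and 77.3 with TSA and 75.0 untreated. It fell by 2.50 ± 0.46 on the log2 scale against TSA (limma adjusted p = 0.0245). Its after-removal signal is under the offset, which sets the size of that difference, and over 8 settings it ran from -3.92 to -1.30. Cxcl12 read 199.1 after removal, against 439.1 and 635.8 with TSA and 430.7 untreated. Its difference from TSA was -1.36 ± 0.32 (limma adjusted p = 0.0371), and the other probe set gave -0.56 ± 0.36 (limma adjusted p = 0.295). Cxcl10 differed by -0.87 ± 0.35 (limma adjusted p = 0.129), and Ccl2 by 0.72 ± 0.31 (limma adjusted p = 0.149). Ccl2 read 1322.5 after removal, against 718.6 and 888.2 with TSA. That was its highest signal of the 7 arrays.

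Against the untreated p53-Dnmt1-null array, Cxcl5 differed by 2.69 ± 0.63, Ccl2 by 1.97 ± 0.36, Cxcl1 by 1.12 ± 0.37, Cxcl12 by -1.07 ± 0.37 and Ccl5 by -2.48 ± 0.53. These 5 were at least 2-fold apart, 3 of 9 higher against 4.65% of features and 2 of 9 lower against 9.67%. The lower count includes Ccl5, which passed the filter only through arrays where it is high, and is a description. None of the 5 passed limma, with adjusted p of 0.136 to 0.219 among them, and 0.0106% of features higher and 0.0% lower. All 5 were among the 1676 features at an unadjusted p under 0.05. The median of all features on the after-removal array differed by -0.13 from untreated and by -0.16 from TSA. Cxcl14 differed from untreated by 0.28, Ccl7 by 0.36, Cx3cl1 by -0.27 and Cxcl10 by -0.44, all within 2-fold.

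**Figure D5:**
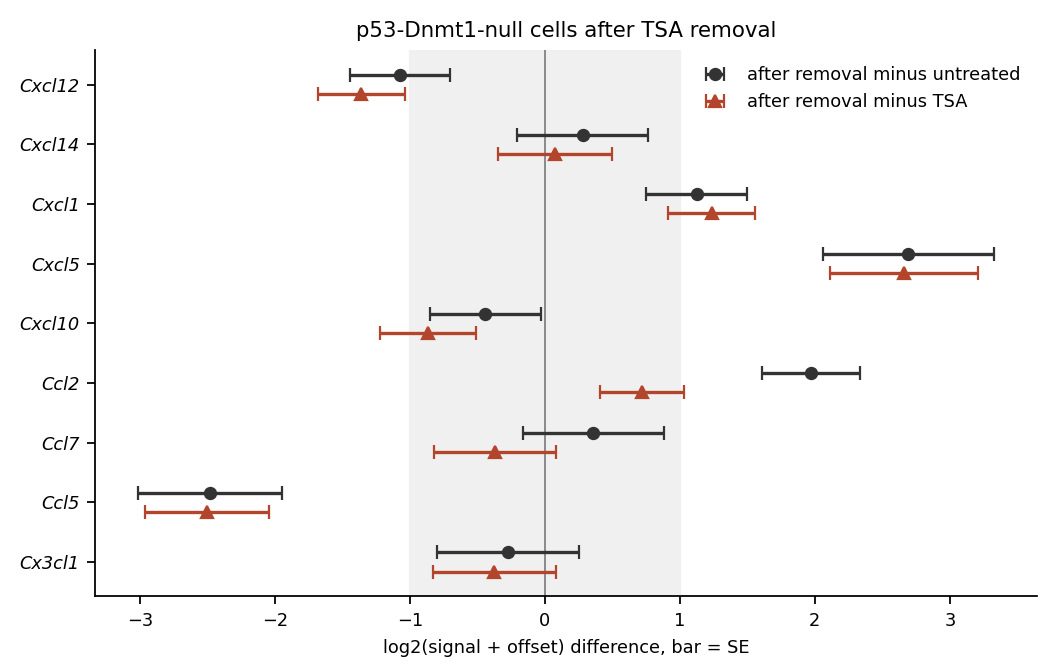
Limma difference of the after-removal array from the untreated array and from the pooled TSA arrays of p53-Dnmt1-null cells, with its SE, on the log2(signal + 11.4) scale, for the 9 tested chemokines. The shaded band is under 2-fold. Cxcl5 and Cxcl1 lie above it and Ccl5 and Cxcl12 below it in both comparisons.

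The after-removal array also stood apart in other listed genes. Of 12 interferon pathway factors tested, 4 were lower than with TSA, beside 7.52% of all features lower. Irf7 differed by -2.38 ± 0.30 (limma adjusted p = 0.0162), and Irf9, Irf5 and Tyk2 by -1.45, -1.15 and -1.14. These and the ligand Ccl8 are named after their values were seen. Ccl8 read 7.3 after removal, against 61.9 and 62.3 with TSA, a difference of -1.97 ± 0.35 (limma adjusted p = 0.0226). None of the 15 NF-kB subunits and inhibitors or the 14 other NF-kB target genes tested passed this test in either direction. Those lists leave out the chemokines, of which Cxcl1, Cxcl5, Ccl5 and Cxcl12 passed it as given above. The summed fibroblast markers were 9281.6 after removal, against 15367.6 and 16684.9 with TSA, the mesothelial markers 10548.0, against 17380.6 and 16285.5, and the epithelial markers 216.4, against 858.4 and 1330.0. The macrophage markers summed to 316.8 after removal, against 596.4 and 547.9 with TSA. The 18S control was at its lowest there. Actb, which encodes beta-actin, read 7485.6 after removal, against 5968.6 and 5175.5 with TSA, by 1 probe set and 88.4, against 137.6 and 178.1, by the other, so its probe sets went opposite ways. Their part in the chemokine differences was not tested.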

How the data were processed

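Per the labels' protocols, RNA of mouse embryonic fibroblasts was extracted with TriZol and labelled in the usual way for Affymetrix arrays. The deposited intensity values are linear signals per probe set that the authors made with MAS5, per the submitters' processing notes. The sources used here do not name its version. The 2% trimmed mean was 150.1 on every array, so no further scaling was done.

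Symbols came from the array's annotation, updated through RefSeq for 20351 of 20380 probe sets with 1 symbol. A gene was represented by its probe set with the highest mean. Values were analysed as log2(signal + 11.4), the offset being the pooled 25th percentile. The filter left 9390 features (8298 named genes, and 1092 probe sets annotated to no symbol or to several).

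Tests used limma 3.58.1 (R 4.3.3) with Benjamini-Hochberg adjustment at 0.05 and an intensity trend in the variance, and were tested on simulated data. Genotypes were compared over 6 arrays with time as a factor. TSA and removal were fitted over 7 arrays with 24 h and 48 h pooled. Residual degrees of freedom were 2, and 3 for TSA averaged over genotypes. With 1 array per group, p-values reflect only how single arrays at different times varied, which may be technical. The number of arrays limits the precision.

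The chemokines and gene lists were chosen with earlier results of these data known. Of each other list, up to 4 genes called between genotypes are named, by the size of the difference. Irf7, Irf9, Tyk2, Ccl8 and Sdc4 were named in addition, after their values were seen, and so were genes listed for how they passed the filter. Alternatives were other offsets, filters, normalization, all probe sets, no trend, no time factor and arrays left out.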

Additional observations from a re-analysis of the deposited data

How the results depend on the processing

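The genotype differences of Ccl2, Cxcl10, Cxcl12 and Cxcl14 passed in all 13 settings, with ranges of 2.85 to 3.76, 1.81 to 3.15, -3.13 to -2.73 and -4.01 to -2.36. Cxcl5 passed in 12, Ccl5 in 11, Cxcl1 in 8 and Cx3cl1 in 4. With all 7 arrays and no time factor, 2 chemokines were higher and 2 lower instead of 4 and 4, and 1013 features were higher instead of 1826. Without the 48 h pair 1112 features were higher, and 1134 were lower instead of 1817. For the after-removal array against TSA, 2 chemokines were called in each direction. Without the filter there were 0 and 0, and without the trend 1 and 1. With an offset of 1 or quantile normalization 1 was higher. The features called were 395 higher and 706 lower, 907 and 1069 over all probe sets, and 0 and 0 without the filter. Against untreated, 1 feature was higher, with 2 over all probe sets and 0 without the filter or the trend. TSA averaged over genotypes called 3 features higher and 0 lower. Without the filter or the trend it called 0 higher. Without the 24 h arrays it called 179 higher and 163 lower, with 1 chemokine, Ccl2, and without the 48 h arrays 83 and 59. There 3 chemokines changed sign without passing. Ccl5 was at 0.18 without the 48 h arrays, and Cx3cl1 and Cxcl10 were at -0.29 and -0.067 without the 24 h arrays. In p53-Dnmt1-null cells TSA called 1 feature higher with no trend or with the offset at the pooled median, instead of 0. The size rule called fewer features with the offset at the pooled median. Between genotypes at all times it called 289 higher and 368 lower instead of 480 and 562, and 508 instead of 886 higher when untreated. With TSA it called 66 higher and 9 lower in p53-Dnmt1-null cells instead of 176 and 32, and 45 and 41 in p53-null cells instead of 145 and 93. After removal it called 208 and 313 against untreated instead of 437 and 908, and 301 and 426 against TSA instead of 492 and 950. The chemokines at 2-fold were then 1 with TSA in p53-null cells instead of 2, 1 lower after removal against untreated, and 1 higher and 1 lower against TSA. With an offset of 1, TSA gave 283 higher and 70 lower in p53-Dnmt1-null cells, and 253 and 145 in p53-null cells. Quantile normalization left 1 chemokine at 2-fold with TSA in p53-null cells and 1 higher after removal against TSA. The cause of these changes was not tested. Over all settings, 514 single-chemokine values were counted as unchanged. The tested ones among them kept their direction and their side of the threshold. Those without a test moved little, but some changed sign. Ccl5 in p53-null cells was at -0.14 with both TSA times pooled and at 0.35 with 24 h alone. Among tested values 25 lost the call, 1 gained it and 3 changed sign. Another 8, which have no test, moved further. Of these, Cx3cl1 in p53-Dnmt1-null cells also changed sign, from 0.10 pooled to -0.42 with 48 h alone. Without the 24 h or 48 h arrays, the TSA tests of 1 genotype have no residual degrees of freedom and give values only. No paired analysis was possible because the labels give no replicate numbers to block on, and the genotypes were matched by time alone, as a factor in the genotype test.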

Other observations

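Of 12 tested genes that process and present chemokines, 7 passed as lower in p53-Dnmt1-null cells, 1 as higher and 4 not at all, beside 19.4% of all features in each direction, and the median was -0.93 against 0.04 over all features. The gelatinase Mmp2, a protease known to cleave Cxcl12 and Ccl7, read 73.0, 80.4 and 144.5 in p53-Dnmt1-null cells at 0, 24 and 48 h and 48.5 after removal, against 1009.2, 881.2 and 1518.8 in p53-null cells. Its difference was -3.39 ± 0.17 (SE, 3 arrays per genotype, limma adjusted p = 5.1e-06). Mmp14, which activates Mmp2, differed by -1.83 ± 0.14 (limma adjusted p = 3.22e-05). The cell-surface proteoglycans Sdc3 and Sdc2, whose heparan sulphate chains bind chemokines, differed by -1.88 and -1.70. Sdc4, another member of that family and named after its values were seen, was the 1 higher gene.

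Receptors and sensors upstream of the induced chemokines went both ways. Of 17 tested, 1 passed as higher, 3 as lower and 13 not at all, beside the same 19.4% in each direction, and the median was -0.06. Sting1, which relays the sensing of cytosolic DNA, was higher, by 1.55 ± 0.17 (limma adjusted p = 0.000248). Il6st, the shared receptor chain of the interleukin-6 family, was lower, by -1.49 ± 0.16 (limma adjusted p = 0.000259). The interleukin-1 receptor Il1r1 differed by -1.39 ± 0.43 (limma adjusted p = 0.034) and the lymphotoxin receptor Ltbr by -0.59. Il1r1 read 9.9, 10.5 and 158.4 in p53-Dnmt1-null cells at 0, 24 and 48 h, against 67.7, 105.5 and 141.7 in p53-null cells. At 48 h the p53-Dnmt1-null array was thus the higher. The fibroblast and mesothelial marker differences of the same arrays stand beside these values, and their part was not tested.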
